A study of Mus musculus with 18 samples.

Results

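Cholesterol and fatty acid synthesis genes of the SREBP pathway were followed across 18 expression arrays of a mouse cell line. The set held 30 genes named by symbol: 17 enzymes of sterol synthesis, 6 enzymes of fatty acid synthesis, 5 genes that control the pathway, and the sterol transporters Stard4 and Abca1. Of these, 29 were read among 18193 genes on the array, each through the probe set with the highest mean log2 signal, and all 29 were among the 10915 brighter genes that were tested. Acat2 is not analysed here. The 29 genes had 68 probe sets in all, 9 genes having 1 and 20 genes several, and probe sets of 1 gene are compared only where they differed.

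The cells were a line called TKO, described as telomere dysfunctional, grown in DMEM with 10% FBS and 1% antibiotics. Cells expressing p53ER, in which p53 is joined to an estrogen receptor and works only once 4-hydroxytamoxifen (4-OHT) binds, were sampled after 4 h with 100 nM 4-OHT, after 4 h with vehicle and at 0 h. Uninfected cells, which lack the fusion, were sampled in the same 3 ways, and each of the 6 groups had 3 arrays. The 4 h point was chosen in the study to list potential direct targets of p53. No group was infected without the fusion, so the fusion and the infection that delivered it cannot be told apart, and the labels do not say whether the p53ER cells were 1 clone. Nor is it stated whether the replicates were grown as separate cultures, so the p-values rest on array-to-array spread that may be only technical.

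Sterol synthesis runs from acetyl-CoA through mevalonate, squalene and lanosterol to cholesterol, and most of its enzymes are encoded by genes that the transcription factor SREBP2 (Srebf2) switches on when membrane sterol is low. SREBP1 (Srebf1) acts more on fatty acid genes. Both precursors sit in the endoplasmic reticulum with their escort Scap; when sterols are plentiful, Insig1 and Insig2 hold Scap there and the factors stay inactive. Oxysterols also activate the receptor LXR, which induces the cholesterol exporter Abca1. Tamoxifen and 4-OHT are known ligands of a microsomal binding site formed by the sterol enzymes Ebp and Dhcr7, and block late steps of cholesterol synthesis in other cells, so a pathway response to the ligand itself is a question that the uninfected cells with 4-OHT address.

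SREBP is known to bind sterol regulatory elements in promoters of its targets, and to act there together with NF-Y and Sp1, which bind CCAAT boxes and GC boxes. RefSeq promoter sequences on GRCm38.p6 were matched by symbol for 24 of the 30 genes, in 32 windows of 250 bases upstream of annotated starts. The windows of 4 genes are shown. Hmgcs1 is the mevalonate pathway synthase whose sterol element is a textbook example, and Insig1 is the sterol-sensing feedback gene. Cyp51 had the smallest unadjusted p among the listed genes over 4 h, and Fasn is the fatty acid synthase that was higher in replicate 3. The Hmgcs1 window lies at chr13:119690101-119690350 on the plus strand, that of Cyp51 at chr5:4104698-4104947 on the minus strand, that of Insig1 at chr5:28071162-28071411 on the plus strand and that of Fasn at chr11:120824548-120824797 on the minus strand. Each is written 5′ to 3′ on the gene's strand up to the base before the start, and capitals mark the sterol regulatory element, CCAAT boxes and GC boxes found on either strand.
Hmgcs1: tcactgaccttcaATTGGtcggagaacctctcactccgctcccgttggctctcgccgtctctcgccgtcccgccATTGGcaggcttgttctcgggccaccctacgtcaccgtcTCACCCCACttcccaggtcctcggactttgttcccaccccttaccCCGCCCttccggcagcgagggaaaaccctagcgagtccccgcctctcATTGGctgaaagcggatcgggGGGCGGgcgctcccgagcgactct
Cyp51: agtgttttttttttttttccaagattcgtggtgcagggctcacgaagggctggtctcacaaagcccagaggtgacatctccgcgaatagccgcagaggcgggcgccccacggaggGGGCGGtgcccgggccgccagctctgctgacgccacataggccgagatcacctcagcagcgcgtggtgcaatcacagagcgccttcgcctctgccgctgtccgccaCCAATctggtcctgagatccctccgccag
Insig1: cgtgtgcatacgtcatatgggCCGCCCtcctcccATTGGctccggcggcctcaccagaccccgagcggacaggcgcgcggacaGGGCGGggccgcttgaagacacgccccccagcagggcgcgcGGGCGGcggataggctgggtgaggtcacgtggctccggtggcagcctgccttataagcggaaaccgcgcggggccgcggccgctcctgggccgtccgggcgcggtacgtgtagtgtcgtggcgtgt
Fasn: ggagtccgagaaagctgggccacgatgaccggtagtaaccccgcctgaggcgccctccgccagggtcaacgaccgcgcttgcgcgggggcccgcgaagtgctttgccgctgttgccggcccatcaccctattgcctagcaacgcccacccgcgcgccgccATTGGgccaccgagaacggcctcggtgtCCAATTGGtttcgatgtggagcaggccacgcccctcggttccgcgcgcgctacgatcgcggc

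The sterol regulatory element was searched as TCACNCCAC, the CCAAT box as CCAAT, the GC box as GGGCGG and the E-box as CACGTG, on both strands. The sterol element was found in 1 of the 32 windows, 3.12%, against 1.05% of 32851 promoter windows of all genes, and that match was the one in Hmgcs1, at position -137 counted back from the start. CCAAT boxes were in 19 windows (59.4%, against 33.8% of all promoters) and GC boxes in 23 (71.9%, against 32.7%). Among the 17 windows of sterol synthesis enzymes, 13 held a CCAAT box and 14 a GC box. E-boxes were in 6 of the 32 windows, 18.8%, against 6.02% of all promoters. The Cyp51 window had a CCAAT box at -29 and a GC box at -135. In Fasn, a pair of the CCAAT matches overlap on opposite strands. These are matches of letters only, and a missing match says nothing about binding outside these windows or to a variant of the element.

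On the log2 scale used throughout, a signal of 82.1 being the common level of every array, the mean over 18 arrays ran from 5.48 for the sterol reductase Tm7sf2 to 9.99 for the stearoyl-CoA desaturase Scd2. Probe sets differ in how they bind, so levels are compared between arrays and not between genes. The fusion responded to its ligand: the p53 target Mdm2 was at 10.21, 10.09 and 11.26 in p53ER cells with 4-OHT, against 6.77, 7.30 and 8.73 with vehicle, a log2 difference of 2.92 (SE 0.41; limma, adjusted p = 0.0332). The p53 target Cdkn1a was at 9.77, 10.17 and 11.24 with 4-OHT, against 7.34, 7.89 and 9.37 with vehicle, 2.19 apart (SE 0.49) without passing (adjusted p = 0.441). Precision is set by having 3 arrays a group. For the 29 members the standard error of a log2 difference within 1 cell type had a median of 0.24.

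Arrays differed in ways the groups do not explain. On the first principal component, with 23.9% of the variance, 3 arrays lay apart. Uninfected 0 h replicate 2 had a score of 56.6, p53ER vehicle replicate 1 of 53.3 and p53ER 0 h replicate 3 of 27.2, the other 15 reaching at most 3.69. Members more than 1 log2 unit below the mean of the other arrays of their group numbered 2, 3 and 1 of 29, in that order. Over all genes 9.05%, 9.31% and 7.01% were that low. The 1 member on p53ER 0 h replicate 3 was Stard4 (-1.05). Idi1, which isomerises isopentenyl diphosphate, differed from the mean of the other arrays of its own group by -2.06, -2.23 and -0.87 log2 units on these arrays, in that order. The differences were -1.87, -1.29 and -0.29 for Elovl6, a fatty acid elongase, and -0.88, -1.06 and -0.84 for Hmgcs1. The largest shifts are given below with and without these arrays. Along the next component, which held 21.8%, the replicate 3 arrays parted from the rest in each group, and that split is taken up after the group comparisons.

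The first comparison asked what 4 h of culture with vehicle did to the pathway, without the ligand. No member passed the test in p53ER cells, in uninfected cells or in their mean, and neither did any of the 10915 genes (0% called by limma at an adjusted p of 0.05 in each of the 3). At an unadjusted p under 0.05, 3.05% of all genes passed in p53ER cells, 5.64% in uninfected cells and 6.88% in the mean, and among members 1 gene passed in each, Cyp51. The median log2 difference of the 29 members was -0.03 in p53ER cells, 0.05 in uninfected cells and 0.03 in the mean, against -0.03, -0.05 and -0.03 over all genes in that order. Members were above 0 in 14, 18 and 16 of 29 genes, against 44.7%, 42.3% and 43.4% of all genes.

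Cyp51, lanosterol 14-alpha-demethylase, was the member with the smallest unadjusted p over the 4 h in each of these comparisons. In p53ER cells its log2 signal was 8.07, 7.96 and 8.10 with vehicle at 4 h, against 7.50, 7.56 and 7.38 at 0 h. In uninfected cells it was 7.56, 7.70 and 7.96 with vehicle at 4 h, against 7.36, 7.26 and 6.95 at 0 h. Every vehicle array lay above every 0 h array of its cell type, and none of the other members was apart in this way in both cell types; over all genes 0.302% were so upward and 0.596% downward. The difference was 0.57 in p53ER cells (SE 0.15, 1.48-fold) and 0.55 in uninfected cells (SE 0.15, 1.46-fold), with limma adjusted p-values of 1.00 and 0.829. Over both cell types it was 0.56 (SE 0.11, 95% interval 0.33 to 0.79, 1.47-fold), rank 2 of 10915 genes by p, and it did not pass after adjustment (limma, adjusted p = 0.234). The difference between cell types was 0.02. Folds are on the scale of signal plus an offset of 4.11, which understates changes of dim genes.

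The Cyp51 value held without the 3 arrays that lay apart (0.54, limma adjusted p = 0.231) and was 0.40 without replicate 3 of every group (adjusted p = 0.806). Over the alternatives run, the adjusted p ranged from 0.0693 with a replicate block to 0.919 with only the compared groups in the fit. A second, dimmer Cyp51 probe set gave 0.40 (limma, adjusted p = 0.746 with every probe set tested), and the third, near the floor with a mean log2 of 3.86, gave -0.01.

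The other sterol enzymes lay to both sides of 0 over the 4 h. Where the arrays of a cell type did not overlap, squalene epoxidase Sqle (0.26) was higher and Mvd (-0.27, or -0.08 without the 3 arrays that lay apart) lower with vehicle at 4 h in p53ER cells, and the sterol dehydrogenase Nsdhl (0.18) was higher and Tm7sf2 (-0.44) lower in uninfected cells. With Cyp51 in both cell types and Abca1 (-0.48) lower in p53ER cells, members without overlap numbered 2 higher and 2 lower in p53ER cells, where 2.41% and 3.62% of all genes were, and 2 higher and 1 lower in uninfected cells, where 4.17% and 7.28% were. Mevalonate kinase Mvk had the lowest mean difference, -0.46, with 6.46, 6.62 and 6.34 in p53ER cells with vehicle at 4 h, against 6.77, 6.31 and 7.26 at 0 h. In uninfected cells Mvk was at 6.65, 6.34 and 5.41 with vehicle at 4 h, against 6.69, 6.62 and 6.95 at 0 h. The groups overlapped in both cell types.

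Idi1 shows how far 1 array moves a value. It was at 6.08, 8.21 and 8.41 in p53ER cells with vehicle at 4 h, against 8.28, 8.15 and 7.35 at 0 h, and at 7.89, 8.21 and 8.25 in uninfected cells with vehicle at 4 h, against 7.95, 5.79 and 7.74 at 0 h. The low values 6.08, 7.35 and 5.79 are those of the 3 arrays that lay apart. With all arrays the difference was -0.36 in p53ER cells and 0.96 in uninfected cells, and without the 3 arrays it was 0.09 and 0.27. Elovl6 moved likewise, with -0.45 in p53ER cells and 0.20 in uninfected cells over all arrays and -0.12 and -0.42 without the 3. Hmgcs1 differed by 0.47 in uninfected cells with all arrays and by 0.18 without those 3 arrays.

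Of the genes that read or set sterol control, Insig1, itself an SREBP target, had the largest mean difference over the 4 h, 0.37, but this rested on replicate 3: it was 0.21 without p53ER vehicle replicate 3 and 0.06 without replicate 3 of every group. Its log2 signal was 7.29, 7.17 and 8.22 in p53ER cells with vehicle at 4 h, against 7.29, 7.04 and 6.98 at 0 h, and 6.67, 7.25 and 7.69 in uninfected cells with vehicle at 4 h, against 7.24, 6.57 and 6.93 at 0 h. The groups overlapped in both cell types, and the highest value in each was replicate 3 with vehicle. Srebf1 was at 8.34, 7.91 and 8.17 in p53ER cells with vehicle at 4 h, against 7.95, 8.36 and 8.57 at 0 h, and at 8.03, 7.70 and 7.91 in uninfected cells with vehicle, against 8.26, 8.48 and 7.56 at 0 h. Srebf2 was at 8.08, 8.32 and 8.34 with vehicle against 7.60, 8.04 and 8.27 at 0 h in p53ER cells, and at 7.73, 8.02 and 8.36 against 7.91, 8.21 and 8.59 in uninfected cells. The mean differences were -0.19 for Srebf1 and 0.04 for Srebf2, and -0.07 and 0.15 without the 3 arrays that lay apart. The 4 h difference of Srebf2 was greater by 0.47 in p53ER cells than in uninfected cells (limma, adjusted p = 1.00 for that difference), and by 0.72 without those arrays. That of the sterol ketoreductase Hsd17b7 was greater by 0.53 in p53ER cells (limma, adjusted p = 1.00), but by 0.22 without p53ER 0 h replicate 3 and by 0.27 without the 3 arrays.

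**Figure D1:**
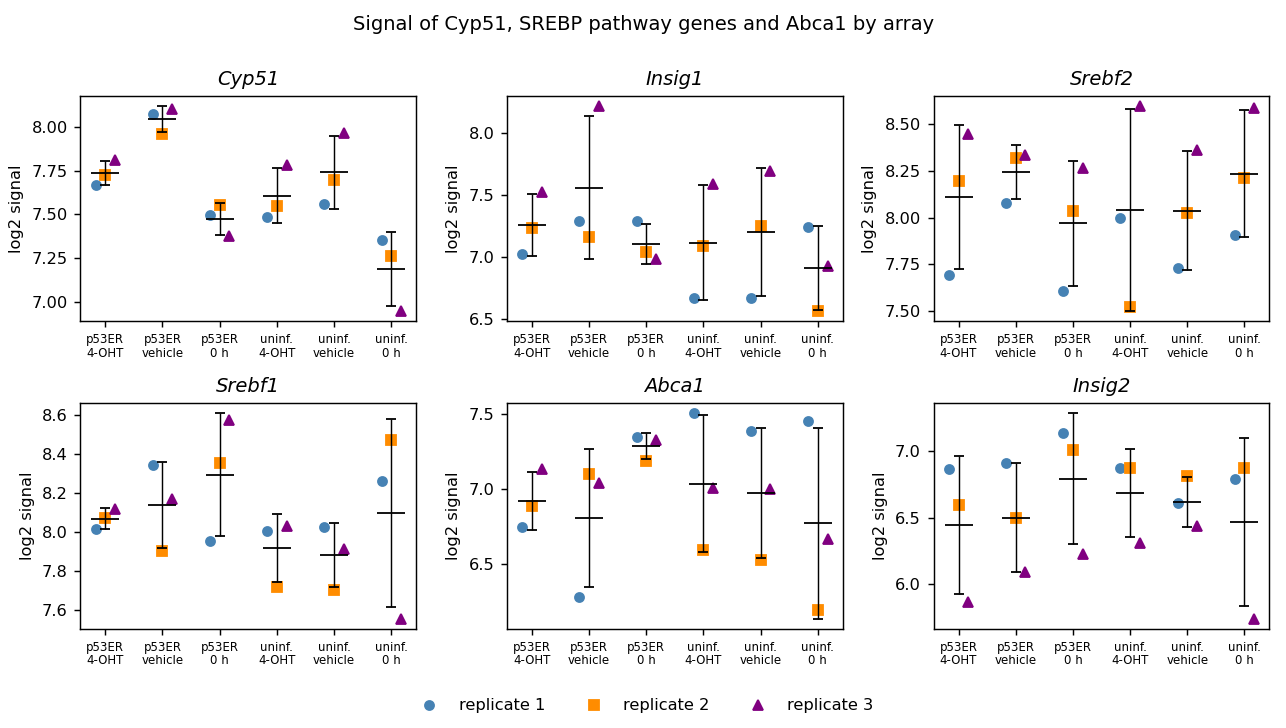
Log2 signal of 6 members on each array, by group (Cyp51, Insig1, Srebf2, Srebf1, Abca1 and Insig2); points are arrays, their marker gives the replicate number, lines are group means and bars are SD (n = 3), and "uninf." stands for uninfected. Replicate 3 is the highest Insig1 value in both vehicle groups (8.22 and 7.69).

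Abca1, read as the LXR target of the set, was at 6.28, 7.11 and 7.04 in p53ER cells with vehicle at 4 h, against 7.35, 7.19 and 7.33 at 0 h. In uninfected cells it was at 7.39, 6.53 and 7.00 with vehicle, against 7.46, 6.20 and 6.67 at 0 h. All p53ER vehicle arrays were below those at 0 h, while the uninfected groups overlapped. The difference in p53ER cells was -0.48 (SE 0.32; limma, adjusted p = 1.00) and was -0.20 without the 3 arrays that lay apart.

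The second comparison asked whether 4-OHT altered the pathway beyond vehicle at the same 4 h. No member passed the test in either cell type. In p53ER cells 0.0183% of all genes did, 2 genes, and in uninfected cells and in the mean of both, 0%. At an unadjusted p under 0.05 limma called 3.22% of all genes in p53ER cells, 0.77% in uninfected cells and 1.84% in the mean, and no member in any of these. The median log2 difference of members was -0.12 in p53ER cells and -0.02 in uninfected cells, against -0.01 and -0.00 over all genes. Members were below 0 in 19 of 29 genes in p53ER cells and in 18 of 29 in uninfected cells. Over all genes 5664 and 5556 of 10915 were below 0. These arrays with vehicle are the same ones that entered the 4 h comparison, so a low vehicle value lowers one difference and raises the other.

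In p53ER cells Cyp51 had the smallest unadjusted p among members with 4-OHT as well. Its log2 signal was 7.67, 7.73 and 7.81 in p53ER cells with 4-OHT, against 8.07, 7.96 and 8.10 with vehicle, and 7.49, 7.55 and 7.78 in uninfected cells with 4-OHT, against 7.56, 7.70 and 7.96 with vehicle. In p53ER cells no 4-OHT array reached a vehicle array, the only member so placed, as were 4% of all genes in that direction; in uninfected cells the groups overlapped. No member was apart in the upward direction in p53ER cells or in either direction in uninfected cells (3.39%, 2.39% and 1.91% of all genes). The difference was -0.31 in p53ER cells (SE 0.15, 95% interval -0.63 to 0.01; limma, adjusted p = 0.998), and -0.13 in uninfected cells. In p53ER cells 4-OHT lay below vehicle in 3 of 3 replicate numbers, by -0.40, -0.23 and -0.29. In uninfected cells, which lack the fusion, it also lay below vehicle in 3 of 3, by -0.07, -0.15 and -0.18. Scd1 also lay below vehicle in 3 of 3 in both cell types. Its differences were -0.31, -0.17 and -0.12 in p53ER cells and -0.43, -0.01 and -0.15 in uninfected cells. In uninfected cells Sc5d, Tm7sf2, Scap and Acly were likewise below in 3 of 3, and Mvd, Hsd17b7, Elovl6 and Abca1 above. The share of all genes so placed was not counted. The difference of the 4-OHT effect on Cyp51 between cell types was -0.18.

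The 2 sterol enzymes that form the known 4-OHT binding site went opposite ways in p53ER cells, and both lay slightly below vehicle in uninfected cells. Ebp differed by -0.20 (SE 0.19) in p53ER cells, or -0.02 without p53ER vehicle replicate 1, and by -0.13 in uninfected cells. Dhcr7 was at 7.14, 6.67 and 6.95 in p53ER cells with 4-OHT, against 6.82, 6.54 and 6.54 with vehicle, and at 6.84, 6.72 and 6.24 in uninfected cells with 4-OHT, against 6.96, 6.84 and 6.23 with vehicle. Its groups overlapped in both cell types, with differences of 0.29 (SE 0.31) and -0.08. A p that misses the threshold does not show that the ligand had no effect. In the mean over both cell types, the 95% interval of the 4-OHT difference lay within 2-fold either way for 28 of 29 members, all but Idi1, and within 1.5-fold for 24. In uninfected cells alone it lay within 2-fold for 27, all but Idi1 and Elovl6.

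The highest mean difference with 4-OHT was that of Idi1, 0.33, which was -0.04 without p53ER vehicle replicate 1. Idi1 was at 8.23, 8.37 and 7.89 in p53ER cells with 4-OHT, against 6.08, 8.21 and 8.41 with vehicle, and at 8.05, 8.08 and 8.41 in uninfected cells with 4-OHT, against 7.89, 8.21 and 8.25 with vehicle. Only p53ER vehicle replicate 1 stood away from the rest. The p53ER difference was 0.60 with all arrays and -0.14 without the 3 arrays that lay apart. Those of Hmgcs1 and Elovl6 were 0.34 and 0.32 with all arrays and -0.01 and -0.11 without them. The lowest p53ER difference was that of Mvk, -0.36, with 6.51, 6.75 and 5.08 with 4-OHT, against 6.46, 6.62 and 6.34 with vehicle, where 4-OHT replicate 3 alone stood away. Without the 3 arrays that lay apart, 23 of 29 members lay below 0 in p53ER cells, with a median of -0.07. The share of all genes below 0 was not counted in that setting, so this count is not read as a result about the members.

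None of the genes Insig1, Srebf1, Srebf2 and Abca1 differed from vehicle by more than its standard error. Insig1 was at 7.02, 7.24 and 7.52 in p53ER cells with 4-OHT and at 6.67, 7.09 and 7.59 in uninfected cells with 4-OHT, differences of -0.30 and -0.09 from vehicle, the first being 0.03 without p53ER vehicle replicate 3. Srebf1 was at 8.02, 8.07 and 8.12 in p53ER cells with 4-OHT and at 8.01, 7.72 and 8.03 in uninfected cells with 4-OHT, differences of -0.07 and 0.04. Srebf2 was at 7.69, 8.20 and 8.45 in p53ER cells with 4-OHT and at 8.00, 7.52 and 8.60 in uninfected cells with 4-OHT, differences of -0.13 and 0.00. Srebf1 and Srebf2 thus had no direction common to both cell types with the ligand. Abca1 was at 6.75, 6.89 and 7.13 in p53ER cells with 4-OHT and at 7.51, 6.59 and 7.01 in uninfected cells with 4-OHT, differences of 0.11 and 0.06.

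**Figure D2:**
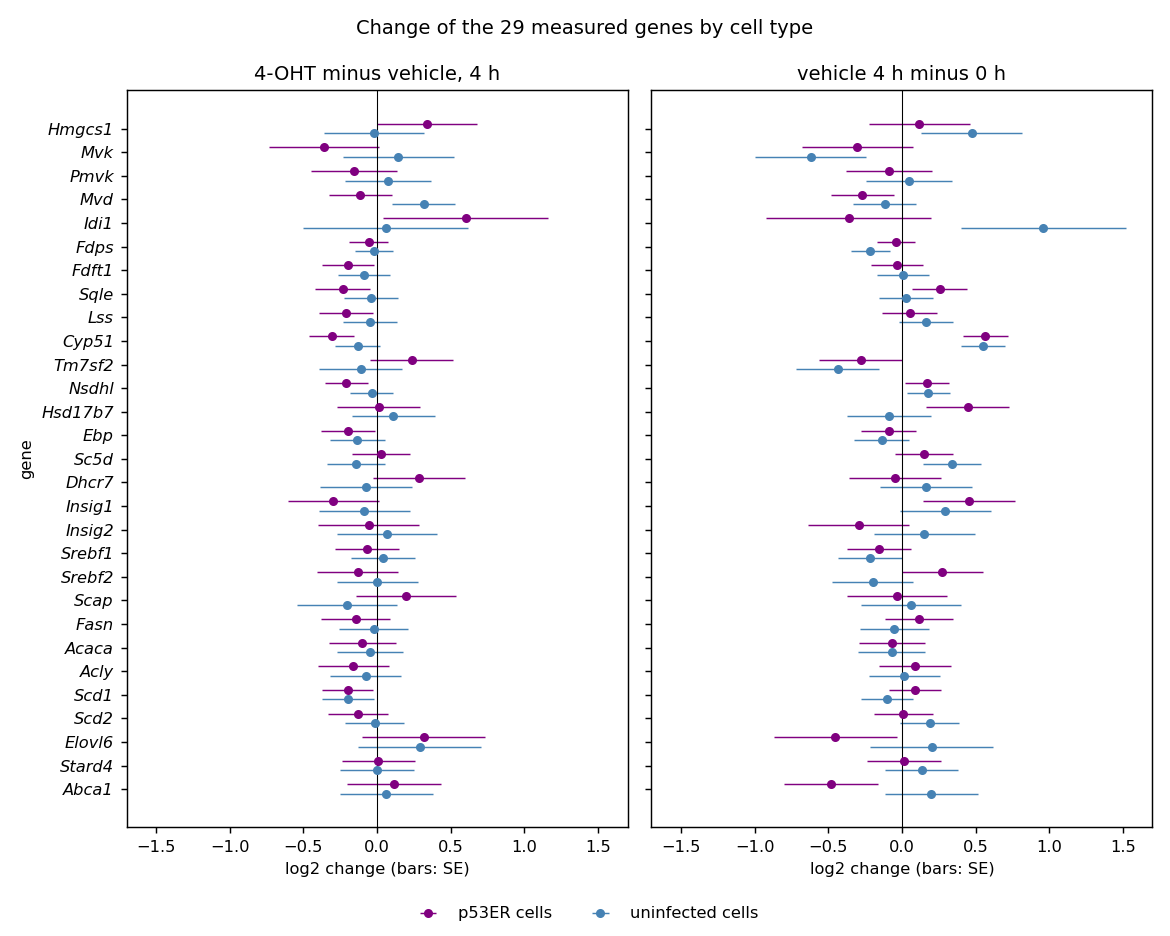
Log2 difference ± SE of each of the 29 members, in p53ER and in uninfected cells, for 4-OHT minus vehicle at 4 h (left) and vehicle at 4 h minus 0 h (right). Cyp51 lies at 0.57 and 0.55 on the right and at -0.31 and -0.13 on the left, and the widest bars are those of Idi1 (SE 0.56).

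**Figure D3:**
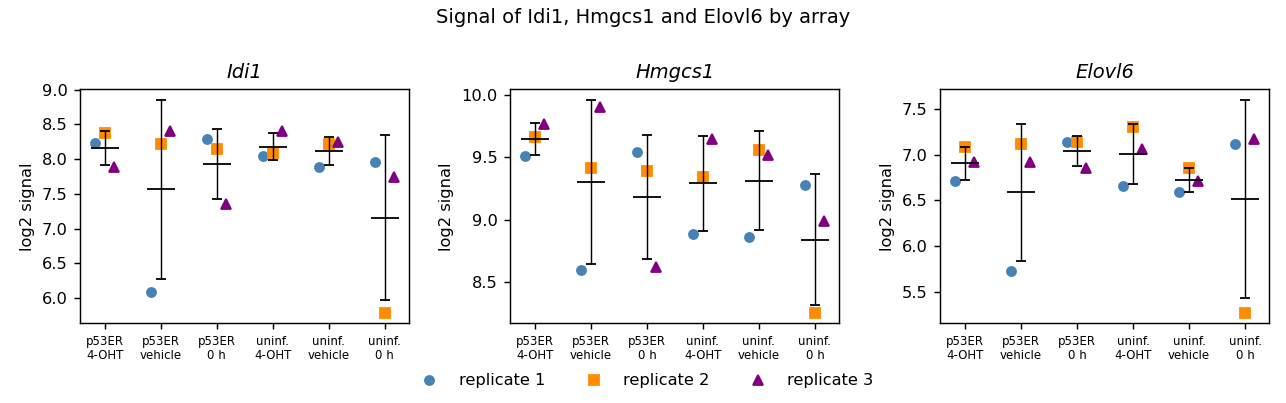
Log2 signal on each array, by group, of Idi1, Hmgcs1 and Elovl6; points are arrays, their marker gives the replicate number, lines are group means and bars are SD (n = 3), and "uninf." stands for uninfected. Idi1 is at 6.08 on p53ER vehicle replicate 1 and at 5.79 on uninfected 0 h replicate 2.

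The third comparison set p53ER cells against uninfected cells without ligand, as the mean of the 0 h and vehicle differences, 6 arrays of each. No member passed the test, and 0.0183% of all genes did (2 genes). At an unadjusted p under 0.05 limma called 4 members higher in p53ER cells and none lower, where 1.8% of all genes were called higher and 1.64% lower. The 4 members became 1, Cyp51, without the 3 arrays that lay apart and 2, Cyp51 and Fdps, without replicate 3. The median over members was 0.17 with 21 of 29 above 0, against -0.00 with 49.5% above 0 over all genes, and of the 16 sterol enzymes 13 were above 0. The median was 0.15 without the 3 arrays that lay apart and 0.09 without replicate 3.

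The 4 genes were Cyp51, Fdps, Nsdhl and Scd2. Cyp51 ran from 7.38 to 8.10 (median 7.76) in p53ER cells, against 6.95 to 7.96 (median 7.46) in uninfected cells, a difference of 0.29 (SE 0.11). Farnesyl diphosphate synthase Fdps ran from 9.72 to 9.92 (median 9.80) in p53ER cells, against 9.37 to 9.84 (median 9.55), a difference of 0.24 (SE 0.09). The ranges of both genes overlapped between cell types. Nsdhl ran from 7.51 to 7.88 (median 7.69) in p53ER cells, against 7.30 to 7.60 (median 7.53) in uninfected cells, 0.23 apart (SE 0.10). Scd2 ran from 9.77 to 10.43 (median 10.20) in p53ER cells, against 9.63 to 10.10 (median 9.82) in uninfected cells, 0.33 apart (SE 0.14). All 4 had an adjusted p of 0.999 (limma). No member was apart between cell types in the same direction both at 0 h and with vehicle, as 0.183% of all genes were upward and 0.192% downward. Of the 4 genes, Fdps and Nsdhl did not overlap with vehicle alone, and Cyp51 and Scd2 at 0 h alone. The share of all genes apart at a single time was not counted. The lowest difference was that of Hsd17b7, -0.22, which was -0.07 without p53ER 0 h replicate 3 and -0.03 without the 3 arrays that lay apart.

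The last comparison set replicate 3 of all 6 groups against replicates 1 and 2, with the groups in the model. The labels do not say what a replicate number stands for. Replicate 3 arrays entered the test as separate units, though same-numbered arrays can deviate together. The p-values therefore do not measure the spread between replicate numbers. Replicate 3 had also been seen to lie apart in these data before it was tested. Here 11 of 29 members passed the test, 37.9%, against 20.9% of all genes (2277 of 10915). Of the members 7 were higher and 4 lower, against 10.3% and 10.6% of all genes. By role, 4 of the 6 fatty acid enzymes rose and none fell, 3 of the 5 control genes rose and 1 fell, and of the 16 sterol synthesis enzymes 2 fell and none rose, 12.5% in all; differences between roles were not tested. The median log2 difference over all members was 0.10, with 17 of 29 above 0, against 49.9% of all genes. Without the 3 arrays that lay apart the median was 0.03.

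Among the control genes, the escort Scap and the sterol factor Srebf2 were higher in replicate 3. Scap ran from 8.49 to 8.94 (median 8.56) in replicate 3, against 7.43 to 8.55 (median 8.00) in replicates 1 and 2, a difference of 0.66 (SE 0.13; limma, adjusted p = 0.00137). Srebf2 ran from 8.27 to 8.60 (median 8.40) in replicate 3, against 7.52 to 8.32 (median 8.01), a difference of 0.49 (SE 0.12; limma, adjusted p = 0.00594). Both were higher in replicate 3 than the mean of the other arrays in 6 of 6 groups. Of the members 6 of 29 were so placed, 20.7%, against 11.3% of all genes. For Scap and Srebf2 the lowest values of replicate 3 overlapped only the highest of the others. A second Srebf2 probe set gave 0.22 (adjusted p = 0.191 with every probe set tested).

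The paralogs Insig1 and Insig2, which both retain Scap, went opposite ways. Insig2 ran from 5.74 to 6.43 (median 6.16) in replicate 3, against 6.49 to 7.14 (median 6.87) in replicates 1 and 2, without overlap. The difference was -0.71 (SE 0.11, limma adjusted p = 0.000265), the lowest of all members. It was below 0 in 6 of 6 groups, as it was for 10.9% of all genes. The other Insig2 probe sets gave -0.89 and -0.63, with adjusted p-values of 0.000173 and 0.0337 with every probe set tested. Insig1 ran from 6.93 to 8.22 (median 7.56) in replicate 3, against 6.57 to 7.29 (median 7.13), a difference of 0.44 (SE 0.15; limma, adjusted p = 0.0490). The Insig1 call was lost in 13 of 18 fits that left out 1 array, where its adjusted p reached 0.167. Srebf1 differed by -0.01.

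Of the 6 fatty acid enzymes 4 passed, and Elovl6 differed by 0.21 with all arrays and by -0.00 without the 3 arrays that lay apart. Fasn ran from 9.14 to 9.51 (median 9.42) in replicate 3, against 8.73 to 9.23 (median 8.93) in replicates 1 and 2, a difference of 0.45 (SE 0.09; limma, adjusted p = 0.00123). Acetyl-CoA carboxylase Acaca ran from 7.57 to 8.06 (median 7.84) in replicate 3, against 7.18 to 7.67 (median 7.38), a difference of 0.41 (SE 0.09; limma, adjusted p = 0.00378). Both overlapped the other arrays only at the edge. ATP citrate lyase Acly ran from 9.94 to 10.19 (median 9.99) in replicate 3, against 9.34 to 10.15 (median 9.57), a difference of 0.40 (SE 0.11; limma, adjusted p = 0.0130). Scd2 ran from 9.63 to 10.43 (median 10.28) in replicate 3, against 9.70 to 10.35 (median 9.88), a difference of 0.29 (SE 0.10; limma, adjusted p = 0.0445), and its call was lost in 14 of 18 fits that left out 1 array. Scd1 ran from 8.51 to 9.18 (median 8.81) in replicate 3, against 8.32 to 8.86 (median 8.61), 0.23 apart without passing (adjusted p = 0.0771). Other probe sets of Acly (0.38 and 0.03), Acaca (-0.05) and Scd2 (0.09 and 0.12) did not pass with every probe set tested.

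The 4 members that fell in replicate 3 were Insig2, Hsd17b7, Sc5d and Stard4. Hsd17b7 ran from 5.68 to 6.82 (median 6.39) in replicate 3, against 6.57 to 7.12 (median 6.83) in replicates 1 and 2, a difference of -0.52 (SE 0.12; limma, adjusted p = 0.00425). The lathosterol oxidase Sc5d ran from 7.40 to 8.06 (median 7.76) in replicate 3, against 7.75 to 8.29 (median 8.13), a difference of -0.30 (SE 0.09; limma, adjusted p = 0.0284), and its call was lost in 4 of 18 fits that left out 1 array, where its adjusted p reached 0.0927. Their ranges overlapped those of the other arrays. The sterol carrier Stard4 ran from 6.78 to 7.49 (median 7.38) in replicate 3, against 7.28 to 7.89 (median 7.71), a difference of -0.36 (SE 0.12; limma, adjusted p = 0.0467), and its call was lost in 14 of 18 fits that left out 1 array. Dhcr7 ran from 5.60 to 6.95 (median 6.39) in replicate 3, against 6.48 to 7.14 (median 6.83), -0.39 apart; its adjusted p was 0.104 with all arrays and 0.0414 without the 3 arrays that lay apart. Sc5d and Stard4 were below 0 in 6 of 6 groups. With Insig2 that made 3 of 29 members, 10.3%, against 10.9% of all genes.

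**Figure D4:**
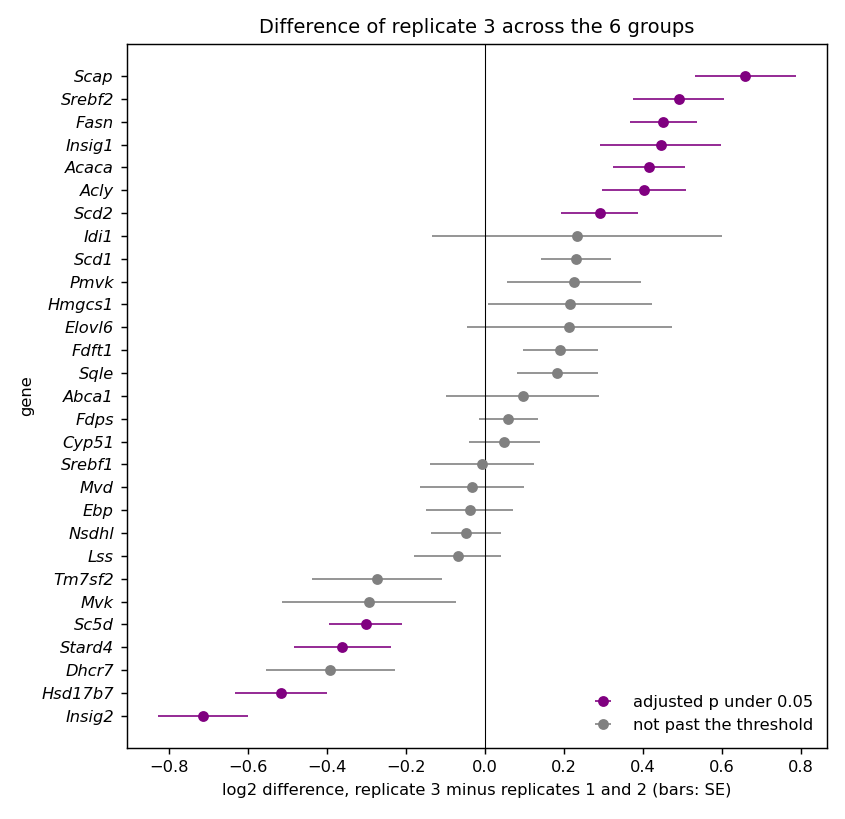
Log2 difference ± SE of each of the 29 members between replicate 3 and replicates 1 and 2, with group means in the model; purple points passed the test and grey ones did not. Scap (0.66), Srebf2 (0.49) and Fasn (0.45) lie at the high end and Insig2 (-0.71) and Hsd17b7 (-0.52) at the low end.

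**Figure D5:**
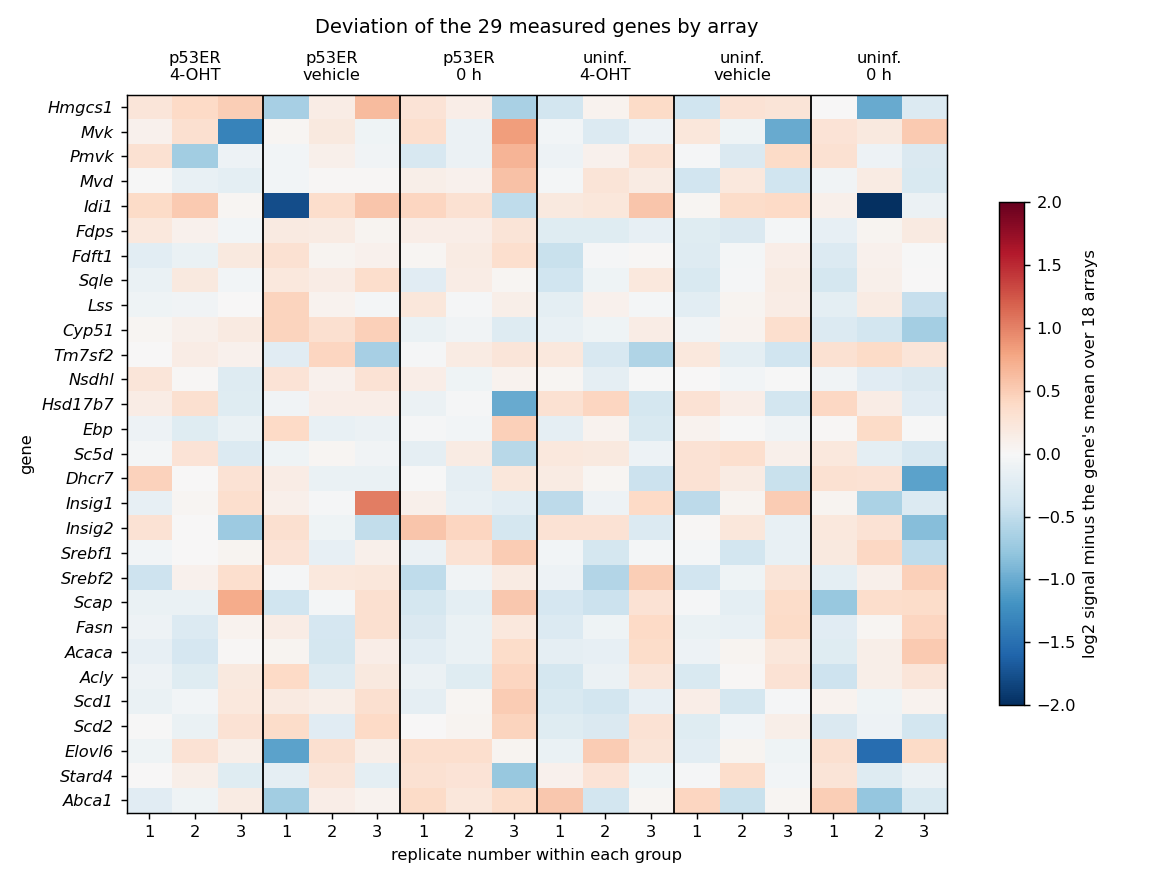
Deviation of each member's log2 signal from its mean over 18 arrays, members down the page and arrays across, on a colour scale from -2 to 2, with "uninf." for uninfected. The strongest blue cells are those of Idi1 and Elovl6 on uninfected 0 h replicate 2 and of Idi1 on p53ER vehicle replicate 1, and the replicate 3 columns show Scap and Insig2 on opposite sides.

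Other measures moved with replicate 3. Before scaling, the trimmed mean signal of its 6 arrays ran from 47.2 to 73.0 (median 57.5), against 57.7 to 147 (median 87.8) on the other 12 arrays. The p53 targets Mdm2 (0.72) and Cdkn1a (0.97) were higher in replicate 3, and both passed the test. The adipocyte markers with a probe set (4 of 5) summed to between 108 and 169 in scaled signal in replicate 3, against 179 to 397 in replicates 1 and 2, without overlap; both tested ones were lower, the lipid chaperone Fabp4 by -1.74 and Pparg by -0.46, while Adipoq was near the floor on all arrays. Of 8 mesenchymal markers 4 were lower and none higher, with Pdgfrb at -1.54 and Col1a1 at -0.95, and the summed signal ran from 28371 to 36685 in replicate 3, against 33330 to 51298. Epithelial markers (3 of 6 tested) summed to between 156 and 251 against 204 to 272, with Epcam at -0.60 and Cdh1 near the floor. Blood markers (3 of 5 tested) summed to between 169 and 176 against 143 to 234, with Cd74 at 0.62, Csf1r at -0.44 and Ptprc near the floor, and hepatocyte markers (0 of 4 tested) to between 13.2 and 45.0 against 6.27 to 34.3, with Alb near the floor. The part of these in the members' differences was not tested, and in bulk RNA fewer cells of a type and less RNA per cell cannot be told apart.

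The wider pathway was read through 40 further genes, of which 32 had a probe set and 29 were tested. None passed the test in a group comparison. In the mean over cell types of vehicle at 4 h minus 0 h, the smallest unadjusted p was that of Msmo1, the methylsterol oxidase that acts close to Cyp51, at 0.31 (limma, adjusted p = 0.647), followed by Pgrmc1 at 0.23 and the phosphatidate phosphatase Lpin1 at -0.38. With 4-OHT it was that of the phospholipid transfer protein Pltp, an LXR target, at 0.61 in the mean (limma, adjusted p = 1.00). Gpam at -0.21 and Ggps1 at 0.24 followed. The Pltp difference was 0.91 in p53ER cells, and in uninfected cells no tested gene among the further LXR genes was above 0.32. Between p53ER and uninfected cells the smallest unadjusted p was that of Lpin1 at 0.53. Mylip, the LXR-induced ligase for lipoprotein receptors, at 0.28 and Aacs at 0.24 came next. In replicate 3 against replicates 1 and 2, 7 of the 29 passed, 24.1%, against 20.9% of all genes. Those higher were Ubxn8 (0.50), the desaturases Fads2 (0.49) and Fads1 (0.36), Tmem97 (0.43), Lpcat3 (0.41) and Rnf139 (0.39), and the lysosomal cholesterol exporter Npc1 (-0.50) was lower.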

How the data were processed

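RNA of the 18 samples was labelled with biotin and hybridised to Affymetrix Mouse430_2 arrays. The deposited table held MAS5 signal intensities on a linear scale for 45101 probe sets, per the submitters' processing notes, and the MAS5 version is not given in the sources used here. Because 2% trimmed means differed between arrays (47.2 to 147), signals were brought to a shared trimmed mean of 82.1, leaving out 64 control probe sets. An offset of 4.11, 5% of this level, was added before taking log2. The probe annotation gave 1 gene for 34945 probe sets, several for 932 and none for 9211. The brightest probe set on average stood for its gene, and the brightest 60% of genes were tested. A linear model of 6 group means (12 residual degrees of freedom) was fitted over all 18 arrays with limma, using a variance prior with trend and robust settings, and replicate 3 was tested as an added term. Tests were two-sided, and the Benjamini-Hochberg adjustment covered all 10915 genes; 0.05 was the threshold.

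Same-numbered arrays deviated together in every pair (r above 0.1) for 4-OHT against vehicle, with r from 0.209 to 0.449 in p53ER cells and 0.306 to 0.618 in uninfected cells, but not for vehicle against 0 h (lowest r -0.0843) or between cell types (lowest r -0.214), so a replicate block was an alternative. Values per array were given for members with an unadjusted p under 0.05 in any comparison, for Insig1, Srebf1, Srebf2 and Abca1, and for the largest mean changes. Elovl6, Hmgcs1 and members whose groups did not overlap were named after their values were seen. The members, gene lists and alternatives were chosen with earlier results of these data known. The pipeline was tested on simulated data. The alternatives were quantile normalization, a larger offset of 16.4, no filter on dim genes, all probe sets, the block, only the groups compared, a plain variance prior, and leaving out the 3 arrays that lay apart, replicate 3 or each array; averaging 4-OHT and vehicle at 4 h was added later. R 4.3.3, limma 3.58.1, statmod 1.5.0 and matplotlib 3.10.9 were used.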

Additional observations from a re-analysis of the deposited data

How the results depend on the processing

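With 3 arrays a group, only differences well above the spread could pass, and probe sets near background give no order. No member passed the test in a group comparison under any alternative run. The number of all genes past the threshold for 4-OHT against vehicle in p53ER cells was 2, and 4 with the larger offset, 8 with the replicate block, 0 with only the groups compared, 4 over all probe sets and 0 to 5 when 1 array was left out. For p53ER against uninfected cells it was 2, and 1 with no filter, with the replicate block and with only the groups compared, and 1 to 3 with 1 array left out. It was 0 for vehicle at 4 h minus 0 h over both cell types, and 6 with the replicate block and 2 with 4-OHT and vehicle averaged at 4 h, an alternative chosen after seeing the data. It was 0 for vehicle against 0 h in p53ER cells, and 1 without the 3 arrays that lay apart and 0 to 1 with 1 array left out. For the 4-OHT effect it was 0 in the difference between cell types (1 with the block and 1 over all probe sets), 0 in the mean (1 over all probe sets) and 0 in uninfected cells, and 0 to 1 in each with 1 array left out. The median of members for 4-OHT in p53ER cells was -0.12, and -0.069 over all probe sets, -0.068 without the 3 arrays, -0.063 without replicate 3 and -0.11 to -0.065 with 1 array left out. Without replicate 3, medians were 0.16 for the difference of the 4 h effect between cell types, -0.080 for 4-OHT in uninfected cells, -0.019 for the difference of the 4-OHT effect and 0.088 for p53ER against uninfected cells. With 1 array left out they ran from -0.093 to 0.036 for 4-OHT in uninfected cells, -0.12 to -0.031 for 4-OHT in the mean, -0.15 to 0.027 for the difference of the 4-OHT effect, -0.025 to 0.10 for the 4 h effect in the mean and 0.10 to 0.18 for p53ER against uninfected cells. In replicate 3 the members past the threshold numbered 7 to 10 and all genes 1704 to 2483 with 1 array left out. The 7 calls of Scap, Srebf2, Fasn, Acaca, Acly, Insig2 and Hsd17b7 held in every setting run, while those of Insig1, Scd2 and Stard4 were lost with no filter, with a plain prior and over all probe sets. The replicate block changed no member's call in a group comparison. Neither the block nor the fit with only the groups compared was run for replicate 3, so they say nothing about its calls. The cause of these changes was not tested.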
